A study of Mus musculus with 41 samples.

Results

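The exon 3 amplicon of the mouse Il4 gene carried 5 of the 64 CpGs that were sequenced across the Il4 locus, named CpG43 to CpG47 along the direction of transcription. They were defined by position, as every CpG read on the minus strand of chr11:53427375-53427537 (mm9), the stretch bounded by the primer pair of exon 3. IL-4 is the signature cytokine of T helper 2 (Th2) cells, and its gene is silent in naïve CD4+ T cells. Methylated CpGs lose 5-methylcytosine (5mC) when TET enzymes oxidise it, first to the hydroxymethyl form (5hmC) and then to the formyl (5fC) and carboxyl (5caC) forms, after which the oxidised bases are diluted by replication or, for 5fC and 5caC, excised by the glycosylase TDG. GATA3 is the lineage-defining transcription factor of Th2 cells and binds several elements of this locus.

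The study asked which enzymes were needed for demethylation of Il4 as naïve CD4+ T cells became Th2 cells. Amplicons covered CNS1, the promoter, exon 1, intron 1 with exon 2, the 3′ region of the enhancer HSII, exon 3 and CNS2. Of 41 samples, 35 held amplicons of this locus: 27 BS-seq samples from 25 libraries, 6 PB-seq samples from 4 libraries and 2 TAPS samples, the last 2 kinds without CNS2. In BS-seq a base read as C was 5mC or 5hmC, in pyridine borane sequencing (PB-seq) a base read as T was 5fC or 5caC, and in TAPS, which oxidises DNA with a TET enzyme before the borane step, 5mC and 5hmC were read as T as well.

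All mice were adult C57BL/6 animals, and T cells came from spleen and lymph nodes. Naïve cells (3 BS-seq libraries) were wild type and sorted as CD25-negative, CD62L-high and CD44-low. Cells of the first Th2 cycle were stimulated for 2 days with plate-bound antibodies to CD3 and CD28, with 1000 U/ml IL-4 and antibody to IFN-γ, and then grown with 20 U/ml IL-2, a step that took 3 days by the labels and 4 by the methods. For the second cycle they rested for 1 day without cytokine, were stimulated in the same way for 1 day and spent 4 days in IL-2. A wild-type (WT) first-cycle set had 3 libraries. TET iTKO cells lacked Tet1, Tet2 and Tet3 and TDG iKO cells lacked Tdg, in both cases through floxed alleles and a ubiquitously expressed, tamoxifen-inducible Cre (ERT2-Cre), with WT controls for each line. Tamoxifen was given to the control mice too, the sorted cells of both lines carried a fluorescent Cre reporter, and the methods describe deletion that was not complete. Each of these 4 genotypes had 2 BS-seq libraries per cycle. First-cycle cells of the TDG line had 3 samples per genotype, of which 2 carried the same library name in their files and were added together as runs of a single library, although their titles number them as replicates. The ERT2-Cre PB-seq samples were added on the same ground. In a further experiment T cells from Rosa26-Cas9 mice were transduced with a retrovirus carrying sgRNA 1 or sgRNA 2 against Gata3, beside a control labelled mock, with 1 library each. The paper describes the control cells as transduced with empty vector, and its legend for these BS-seq data also names electroporation. PB-seq compared TDG WT with TDG iKO cells (ERT2-Cre) and WT with Tdg KO cells deleted by CD4-Cre, expressed in T cells from the Cd4 promoter, all after the first cycle and with 1 library each. TAPS had 1 library of naïve and 1 of WT first-cycle Th2 cells. The labels do not name animals, so p-values measure the spread between these samples, which may be technical.

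Il4 (ENSMUSG00000000869.6) lies on the minus strand at chr11:53416484-53432171 in mm9. Exon 3 spans chr11:53427406-53427558, is 153 bp long and belongs to all 4 of the 4 annotated transcripts. The amplicon was 163 bp long, of which 132 bp were exon 3 and 31 bp were the start of intron 3. In the transcript with 4 coding exons the exon is coding throughout. In 2 other coding transcripts, where the same exon is the second, the start codon is at chr11:53427451-53427453, which leaves CpG43 in the 5′ UTR of those transcripts. CpG43 was at position 53427513, CpG44 at 53427432, CpG45 at 53427423 and CpG46 at 53427407. CpG47 was at 53427400, in intron 3 and 6 bases past the end of the exon. The first 3 of these CpGs opened a codon in the reading frame of the transcript with 4 coding exons, and CpG46 took the second position of its codon, at base 152 of the exon's 153. The spacing between neighbours was 81, 9, 16 and 7 bases, so CpG43 stood apart from a cluster of 4 at the splice donor site.

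The cluster and the 26 bases around each CpG are shown because every value below refers to them. All are from mm9, minus strand, 5′ to 3′, and capitals mark the CpGs measured, in the 26-base contexts only the central CpG of each. The cluster is at chr11:53427375-53427453, beginning with the internal start codon, and the contexts of CpG43 to CpG47 are at chr11:53427500-53427525, chr11:53427419-53427444, chr11:53427410-53427435, chr11:53427394-53427419 and chr11:53427387-53427412.
exon 3 end and intron 3 start: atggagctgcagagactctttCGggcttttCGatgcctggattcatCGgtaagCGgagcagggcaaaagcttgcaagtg
CpG43: tccaaggtgcttCGcatattttattt
CpG44: cagagactctttCGggcttttcgatg
CpG45: tttcgggcttttCGatgcctggattc
CpG46: gcctggattcatCGgtaagcggagca
CpG47: ttcatcggtaagCGgagcagggcaaa
CpG43 to CpG46 were each preceded by T, and CpG47 by G. The exon 3 amplicon held 3.07 CpGs per 100 bp at a GC content of 46.6%, and its ratio of observed to expected CpGs, 0.579, was the highest of the 11 Il4 amplicons. The motif GATA, searched on both strands (as GATA or TATC), was not in this amplicon, whereas 8 of the other 10 amplicons held at least 1 copy. In RefSeq promoters (GRCm38.p6), 35.8% of 32851 windows of the same 163 bp held it, so its absence from a stretch of this length is common, and it says only that these letters do not occur here.

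The nearest amplicon on the 5′ side, the 3′ region of HSII, is intronic at chr11:53430150-53430347, 2613 bp from the exon 3 amplicon. It also carries 5 CpGs, and its sequence is given for comparison because its levels fell in the same libraries.
HSII 3′ region: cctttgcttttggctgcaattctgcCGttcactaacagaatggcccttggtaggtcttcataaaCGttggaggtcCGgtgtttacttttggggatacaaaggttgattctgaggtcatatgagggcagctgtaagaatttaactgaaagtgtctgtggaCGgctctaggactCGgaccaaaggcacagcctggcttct
The 2 amplicons differed little in GC content (48.0% against 46.6%) and in CpG density (2.53 against 3.07 per 100 bp), and HSII held the GATA motif in 1 copy.

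Exon 3 was heavily methylated in every naïve and Th2 library sequenced by BS-seq. Each CpG was given the share of its C or T reads that were C, in percent, and the level of exon 3 in a library was the unweighted mean over its 5 CpGs. Across the 22 libraries of the 10 naïve, WT, TET and TDG groups the exon 3 level averaged 95.9% ± 0.333 (SD, n = 22), with a lowest value of 95.3%, a median of 95.9% and a highest value of 96.7%. All 110 single CpG values lay above 90%, between 93.8% and 97.9%. They rested on 635 to 73142 reads per CpG, and 6 libraries reached the upper limit at which read counts stop. Over the same 22 libraries the exon 3 level covered a range of 1.48 percentage points, against 71.7 points in CNS1, 66.7 in the 3′ region of HSII, 46.2 in the promoter and 43.8 in intron 1 with exon 2. Its SD within groups, 0.375 points, was also smaller than that of CNS1 (3.75 points), HSII (4.17) and intron 1 with exon 2 (2.52). CNS2, which was little methylated, came nearer, with an SD within groups of 0.559 points. Its range was 9.91 points over the 17 libraries that covered it fully. In naïve cells alone, where CNS1, HSII and intron 1 with exon 2 were highly methylated too, their SDs were 0.550, 0.316 and 0.852 points. That of exon 3 was 0.348. The group means of exon 3 spanned 0.511 points, against 70.2 points in CNS1 and 64.4 in HSII.

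Why exon 3 stopped short of 100% was not tested. At the 18 cytosines of the amplicon outside CpGs, where a read of C reflects incomplete conversion, the pooled share of C was 0.207% to 0.358% over the 25 BS-seq libraries, with a median of 0.240%. Conversion of methylated cytosine to T, which would lower the exon 3 level, was not measured.

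The 5 CpGs differed from each other by less than 1 point on average. Over the 22 libraries CpG43 had a mean of 96.3% ± 0.514 (SD, n = 22), CpG46 of 96.1% ± 0.752, CpG45 of 95.8% ± 0.705, CpG47 of 95.7% ± 0.696 and CpG44 of 95.5% ± 0.861. CpG44, the first CpG of the cluster, was the lowest of the 5 in 11 of 22 libraries, whereas CpG43, the isolated CpG, was never the lowest. CpG46 was most often the highest, in 8 libraries. Of the 10 pairs of CpGs, 4 passed a paired sign-flip permutation test over libraries. CpG43 exceeded CpG44 by 0.855 points (adjusted p = 0.00500, higher in 17 of 22 libraries), CpG47 by 0.620 points (adjusted p = 0.00755, 15 of 22) and CpG45 by 0.533 points (adjusted p = 0.0208, 16 of 22). CpG44 minus CpG46 was −0.619 points (adjusted p = 0.0491, CpG46 higher in 17 of 22). With only the 14 naïve and WT libraries none of the 10 pairs passed, although these 4 differences kept their size (0.863, 0.624, 0.611 and −0.619 points). Neighbours in the order, such as CpG43 and CpG46 or CpG45 and CpG47, did not differ beyond the spread.

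Naïve cells already had this level. The 3 naïve libraries had exon 3 levels of 95.6%, 95.8% and 96.3%, and the 3 WT libraries of the first cycle had 96.2%, 96.01% and 95.7%. The groups overlapped, and the change of 0.0728 points (95% interval −0.595 to 0.740, n = 3 and 3) gave p = 0.9 in an exact permutation test, two-sided, where 0.1 is the smallest value the design allows. After the second cycle the 4 WT libraries of the TET and TDG lines had 95.6%, 95.9%, 95.98% and 95.4%. Their change from naïve cells was −0.177 points (95% interval −0.802 to 0.447, n = 4 and 3, exact permutation p = 0.486, smallest possible 0.0286). These 4 libraries came from tamoxifen-treated control mice of the TET and TDG lines, whereas the naïve libraries were labelled apart from those lines. Here and below, a change from naïve to second-cycle cells cannot be told apart from a difference between these sets. The intervals, which use the SD pooled within the 10 groups on 12 degrees of freedom, leave room for a fall of at most 0.802 points. Over the 9 mean differences tested, all adjusted p-values were 1.

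By CpG, a quasi-binomial regression with dispersions moderated by limma called 0 of 5 exon 3 CpGs from naïve to first-cycle cells and 0 of 5 from naïve to second-cycle cells, and in both comparisons 0 had an unadjusted p under 0.05. The same test called 58.9% of the 56 CpGs of the locus in the first of these comparisons and 75% in the second. The limma test on log ratios called 0 exon 3 CpGs in the first comparison (34 of all 56 CpGs) and 1 in the second, CpG44 (44 of 56). A fit with no variance shared between CpGs called 0 in both (31 and 42 of 56). The median change over exon 3 was 0.126 points to the first cycle and 0.0384 points to the second, beside medians of −9.00 and −35.3 points over all CpGs tested.

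CpG47, the intronic CpG, and CpG44 had the largest differences between naïve and Th2 libraries, neither of which passed the test. CpG47 had 94.4%, 94.8% and 94.7% in the naïve libraries, and the 19 Th2 libraries of the WT and deleted groups ranged from 94.98% to 97.1% with a median of 95.8%. All 19 were above the naïve libraries, by 1.30 points in the mean to the WT first cycle (95% interval 0.235 to 2.36, adjusted p = 0.555) and by 1.33 points to the WT second cycle (95% interval 0.337 to 2.33, adjusted p = 0.458). CpG44 had 96.1%, 97.2% and 97.2% in naïve libraries, and the Th2 libraries ranged from 93.8% to 96.3% with a median of 95.3%. Of the 19, 16 were below each naïve library. Its differences were −1.29 points to the first cycle (95% interval −2.59 to 0.0151, adjusted p = 0.551) and −1.87 points to the second (95% interval −3.09 to −0.655, adjusted p = 0.296), the largest of any exon 3 CpG between naïve and Th2 cells. Naïve and WT libraries did not overlap at 2 exon 3 CpGs (CpG44 and CpG47) in the first cycle and at 1 (CpG47) in the second, beside 62.5% and 78.6% of all CpGs tested. The intervals rest on each CpG's own spread. The adjusted p-values use a between-library variance common to all CpGs tested in the comparison, where other CpGs spread more than those of exon 3. CpG44 and CpG47 were singled out after their values were seen, and the other 3 CpGs overlapped between naïve and WT libraries in both cycles.

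High methylation in naïve cells was not particular to exon 3. Outside it, 27 CpGs had a mean naïve level of 90% or more, between 90.2% and 96.7%, which takes in most of the naïve range of the exon 3 CpGs, 94.7% to 96.8%. All 27 were called lower in second-cycle WT cells, with a median change of −58.3 points, again across sets that were labelled apart. CpG29, in intron 1 and exon 2, fell most, from 90.7% to 10.3%, and CpG33 of the same amplicon fell least, from 91.8% to 75.3%. The changes at the 5 exon 3 CpGs ran from −1.87 to 1.33 points, none of them called.

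From the first to the second cycle exon 3 also kept its level in WT cells. CNS1, HSII, exon 1 and intron 1 with exon 2 lost methylation. In the TET line WT cells had 96.2% and 96.1% after the first cycle and 95.6% and 95.9% after the second. In the TDG line they had 95.97% and 95.7%, then 95.98% and 95.4%. The mean difference was −0.268 points (95% interval −0.846 to 0.311, n = 4 and 4, exact permutation p = 0.2), and the cycles overlapped. Over the same 8 libraries CNS1 went from 63.1% ± 8.04 to 27.9% ± 5.55 (SD, n = 4), the 3′ region of HSII from 66.8% ± 2.53 to 30.1% ± 5.27, 6 CpGs of exon 1 from 67.2% ± 5.86 to 43.8% ± 3.00, and intron 1 with exon 2 from 76.4% ± 2.12 to 55.2% ± 3.01. The promoter, which was less methylated, went from 30.1% ± 5.33 to 23.8% ± 1.25 with overlapping libraries, and 1 of its 4 CpGs was called. The change in exon 3 differed from that in CNS1 by 34.9 points and from that in the 3′ region of HSII by 36.4. It differed by 23.1 from that in exon 1 and by 20.95 from that in intron 1 with exon 2. Each of these 4 differences had an exact permutation p of 0.0286 (n = 4 and 4), the smallest possible, and an adjusted p of 0.0286. The paper had already reported from these data that these 4 regions lose methylation and that exon 3 does not. The p-values are therefore no independent support, and the promoter and CNS2 were not part of this test.

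The quasi-binomial test with limma called 0 of 5 exon 3 CpGs between the WT cycles, with 0 at an unadjusted p under 0.05, against 82.6% of the 46 CpGs tested. The limma test on log ratios called 0, beside 38 of all 46 CpGs, and the fit with no shared variance called 1, CpG46, beside 42. All 5 exon 3 CpGs were lower after the second cycle, by 0.0379 points at CpG43 to 0.723 points at CpG46, all within intervals that include 0.

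Loss of all TET enzymes did not move exon 3 beyond the spread in either cycle, with little room for a rise. After the first cycle TET iTKO cells had exon 3 levels of 95.5% and 95.9%, below the 96.2% and 96.1% of their WT controls. The difference was −0.463 points (95% interval −1.28 to 0.355, n = 2 and 2), or −0.995 points with the median over the 5 CpGs. Although the groups did not overlap, the exact permutation p of 0.333 is the smallest that 2 libraries against 2 can give. After the second cycle TET iTKO cells had 95.3% and 96.1% and WT cells 95.6% and 95.9%, with the groups overlapping and a difference of −0.0637 points (95% interval −0.881 to 0.754, exact permutation p = 1). The quasi-binomial test with limma called 0 of 5 exon 3 CpGs in the first cycle, beside 56.7% of the 60 CpGs tested, and 0 of 5 in the second, beside 68.3%, with 0 at an unadjusted p under 0.05 in both. All of the calls elsewhere were higher in TET iTKO cells. With WT levels of 95.6% to 96.2%, exon 3 had no room for rises of the sizes seen in CNS1 and exon 1. Its 0 calls therefore do not show that it responded less than the rest of the locus. Median differences for the first and second cycle were 40.8 and 62.6 points in CNS1, and 20.4 and 37.6 points in exon 1. They were smaller in the 3′ region of HSII, at 10.1 and 4.65 points with 1 of 5 CpGs called in each cycle. In CNS2 they were 1.59 and 2.13 points. Over exon 3 the medians were −0.358 and −0.113 points, beside 12.5 and 26.2 points over all CpGs tested.

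Among the members, CpG46 at the splice donor gave the largest TET difference. TET iTKO libraries had 95.1% and 95.2% at CpG46 after the first cycle and WT libraries had 96.95% and 97.05%. The groups were apart by 1.85 points in the mean, with iTKO the lower (95% interval −3.50 to −0.208, adjusted p = 0.409). After the second cycle the iTKO libraries had 95.5% and 97.6% and the WT libraries 95.4% and 95.95%, so that the difference was 0.870 points in the other direction with overlapping groups. The limma test on log ratios called 0 exon 3 CpGs in both cycles, beside 41 and 46 of all 60 CpGs. With no shared variance CpG46 was called in the first cycle, as lower, and CpG45 (−0.990 points) and CpG46 in the second, beside 41 and 44 of all 60 CpGs in that fit.

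Loss of TDG gave small differences of either sign. TDG iKO cells had 95.9% and 95.7% after the first cycle against 95.97% and 95.7% in WT cells, a difference of −0.0472 points (95% interval −0.865 to 0.770, n = 2 and 2, exact permutation p = 1). After the second cycle they had 96.7% and 95.6% against 95.98% and 95.4%, a difference of 0.478 points (95% interval −0.339 to 1.30, exact permutation p = 0.667). The iKO library at 96.7% was the highest of the 22, and without it the second-cycle difference was −0.0652 points. The quasi-binomial test with limma called 0 of 5 exon 3 CpGs in both cycles, with 0 at an unadjusted p under 0.05. It called 0% of the 46 CpGs tested in the first cycle and 0% of the 63 in the second, so that exon 3 did not stand apart from the rest of the locus here. The limma test on log ratios and the fit with no shared variance also called 0 exon 3 CpGs in both cycles, and over the locus only the latter called any, 2 of 63 CpGs in the second cycle. In the fit with no shared variance 1 exon 3 CpG had an unadjusted p under 0.05 in each cycle. The largest difference at a single CpG was 1.35 points at CpG45 in the second cycle, where iKO libraries had 95.8% and 97.9% and WT libraries 95.4% and 95.5%, with a 95% interval of −0.0538 to 2.76.

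Within the deleted cells the second cycle also left exon 3 near its first-cycle level. In TET iTKO cells the mean changed by −0.0161 points (95% interval −0.834 to 0.802, n = 2 and 2, exact permutation p = 1) and in TDG iKO cells by 0.405 points (95% interval −0.412 to 1.22, exact permutation p = 1). The quasi-binomial test with limma called 0 of 5 exon 3 CpGs in TET iTKO cells, beside 11.7% of 60 CpGs, and 0 of 5 in TDG iKO cells, beside 80.4% of 46, with 0 at an unadjusted p under 0.05 in both. The calls in TET iTKO cells included all 5 CpGs of the 3′ region of HSII, whose median change was −33.0 points. The calls depended on the fit. A fit of only these groups called 5 of 60 CpGs and the same fit with the replicate number as a block called 0. With 2 libraries per group the block leaves few degrees of freedom, so the lost calls do not show that the fall in HSII was absent. In the same cells exon 3 had a median change of −0.661 points. The limma test on log ratios called 0 exon 3 CpGs in both genotypes, beside 9 of 60 CpGs in TET iTKO and 37 of 46 in TDG iKO cells, and the fit with no shared variance called CpG46 in TET iTKO cells (1.42 points higher, beside 15 of all 60 CpGs) and 0 in TDG iKO cells (35 of 46). In that last fit 4 of 5 exon 3 CpGs had an unadjusted p under 0.05 in TET iTKO cells, in differing directions, and 1 in TDG iKO cells. Such unadjusted counts were not made over the locus.

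In Th2 cells with Gata3 sgRNA, exon 3 stayed within 0.300 points of the mock library in the mean, while the regions that lose methylation were higher. The mock library had an exon 3 level of 96.4%, the library with sgRNA 1 had 96.1% and that with sgRNA 2 had 96.3%, at 39044 to 65456 reads per CpG. The differences were −0.300 and −0.109 points, beside 12.04 and 12.8 points in CNS1, 18.3 and 15.9 in the 3′ region of HSII and 16.7 and 17.3 in exon 1. With 1 library each, Fisher's exact test (two-sided, adjusted over 64 CpGs) compared libraries and not conditions, and a CpG was counted only with a difference of at least 10 points. By that rule 0 of 5 exon 3 CpGs differed with sgRNA 1, beside 45.3% of 64 CpGs, and 0 of 5 with sgRNA 2, beside 45.3%. The mock library was at 95.4% to 97.5% at the exon 3 CpGs, so a rise of 10 points was impossible there. Only a fall could have been counted, and the 0 counts do not show a weaker response than elsewhere. At this depth 4 exon 3 CpGs passed the adjusted test with either sgRNA when no minimum difference was set, beside 62 of 64 CpGs of the locus for sgRNA 1 and 61 for sgRNA 2, with differences from −1.40 to 1.18 points for sgRNA 1 and from −0.915 to 0.593 for sgRNA 2. Both comparisons use the same mock library, so a shared direction is no second observation. Differences of this size also occurred between libraries of a single group, and no spread between replicates stands behind these p-values.

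PB-seq read little 5fC and 5caC at exon 3, with values near the background of the assay. The PB level was the percentage of T with C reads multiplied by 0.5, on the minus strand and at 13086 to 23228 reads per CpG. Means over the 5 CpGs were 0.271% in TDG WT and 0.349% in TDG iKO cells (ERT2-Cre), and 0.272% in WT and 0.375% in Tdg KO cells (CD4-Cre). With all CpG reads pooled, TDG WT cells had 0.271% (95% Wilson interval 0.231 to 0.318) and the cytosines outside CpGs in the same reads had 0.267% (0.245 to 0.290). In TDG iKO cells the CpGs had 0.349% (0.304 to 0.400) and the other cytosines 0.221% (0.202 to 0.242), so that the CpGs were 0.128 points above that background, against 0.0185 points on the plus strand. For CD4-Cre the CpGs were at 0.272% (0.230 to 0.321) in WT cells against 0.300% (0.276 to 0.326) at other cytosines, and at 0.375% (0.315 to 0.448) in Tdg KO cells against 0.672% (0.627 to 0.720). The CpGs thus exceeded the other cytosines beyond counting error on this strand only in the TDG iKO library and were below them in the Tdg KO library of CD4-Cre. Wilson intervals cover counting error only, since reads amplified by PCR, with no molecular identifiers, do not stand for separate molecules.

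CNS1 shows the size of a PB signal in the same libraries. Its mean rose from 0.466% to 2.19% with ERT2-Cre and from 0.279% to 4.78% with CD4-Cre. The differences in exon 3 were 0.0778 and 0.103 points, and those in the 3′ region of HSII 0.0810 and 0.151 points. Under Fisher's exact test with a minimum difference of 1 point, 0 of 5 exon 3 CpGs differed between TDG iKO and WT (beside 36.2% of 47 CpGs) and 0 of 5 between Tdg KO and WT (beside 48.9%). Without the minimum, 2 exon 3 CpGs passed with ERT2-Cre, CpG44 (0.171% to 0.352%) and CpG45 (0.305% to 0.550%), and 3 with CD4-Cre, beside 35 and 36 of the 47 CpGs of the locus. Those 3 went in different directions, with CpG43 lower in Tdg KO cells (0.806% to 0.137%), and CpG45 (0.197% to 0.640%) and CpG47 (0.128% to 0.898%) higher. CpG45 was the only member higher with both Cre lines by this test. Its 0.640% in the Tdg KO library was below the 0.672% at cytosines outside CpGs there. On the plus strand CpG45 was lower in Tdg KO (0.0157%) than in WT cells (0.0810%) with CD4-Cre. With ERT2-Cre it had 0.220% in TDG iKO and 0.185% in TDG WT cells on that strand. The sequencing runs of the ERT2-Cre libraries had means of 0.322% and 0.222% in WT cells and 0.430% and 0.276% in TDG iKO cells. The first run was thus the higher in both genotypes, and TDG iKO was above WT within each run. None of the 5 CpGs passed in the first run alone, beside 28 of 47 CpGs. In the second 4 did, beside 33 of 47, of which CpG44 and CpG45 were higher in TDG iKO cells and CpG43 and CpG47 lower. CpG44 and CpG45 were also higher in the first run, by 0.0725 and 0.163 points against 0.287 and 0.327 in the second.

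TAPS gave a high level at exon 3 in both cell types but spread the 5 CpGs further apart than BS-seq did. Here T was counted as the share of C and T reads of the minus strand, at 8488 reads per CpG in naïve and 8511 in Th2 cells. Naïve cells had 94.3% at CpG43, 79.6% at CpG44, 99.8% at CpG45, 99.8% at CpG46 and 87.3% at CpG47, and Th2 cells had 96.1%, 88.98%, 99.6%, 99.9% and 88.0% at the same CpGs. CpG44 and CpG47 were thus the lowest members in both libraries, whereas CpG45 and CpG46 were above their BS-seq levels. The mean of exon 3 was 92.2% in naïve and 94.5% in Th2 cells, 2.37 points higher in Th2 cells, whereas the plus strand went from 99.0% to 97.8%. In the same libraries CNS1 fell by 40.4 points, exon 1 by 34.6, intron 1 with exon 2 by 32.4, and HSII fell by 32.2. Fisher's exact test with a minimum difference of 10 points called 0 of 5 exon 3 CpGs, beside 80.9% of 47 CpGs. Without the minimum 3 passed, beside 44 of 47 CpGs of the locus, CpG43 and CpG44 as higher in Th2 cells (by 1.80 and 9.41 points) and CpG45 as lower (by 0.176 points). The rise at CpG44 in TAPS went against its lower BS-seq level in Th2 cells, and with 1 TAPS library per cell type there was no replicate check. T at the cytosines outside CpGs amounted to 0.340% in naïve and 0.373% in Th2 cells.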

How the data were processed

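The members and lists were chosen with earlier results of these data known. The authors mapped paired-end reads to mm9 with BSMAP and deposited counts of reads with C and with C or T at each cytosine. These counts, which stop at 65535, were used as deposited. At all 25709 cytosines used, the base matched the mm9 sequence. A CpG needed 100 reads in every library compared, and samples with the same library name were added as runs. Counts of 22 BS-seq libraries were fitted by quasi-binomial regression with Williams weights for between-library variance. This variance was estimated over all CpGs tested in each comparison. Dispersions were moderated with squeezeVar of limma 3.58.1 and kept at 1 or more. F-tests were two-sided, with Benjamini-Hochberg adjustment over all CpGs tested, and adjusted p under 0.05 was called. The fit was also run on simulated data, from which no value is given here. Library means were compared by exact permutation, single libraries by Fisher's exact test, and pairs of CpGs by sign-flip permutation (100000 resamples). All 5 exon 3 CpGs are named, and elsewhere only the CpGs with the largest and smallest fall among those at 90% or more in naïve cells. Alternatives were lower and higher read minimums, limma on log2((C + 1)/(T + 1)), no shared variance, only the groups compared, the replicate number as a block, runs kept apart, medians or added reads, no minimum difference, each library left out and, chosen after seeing the data, the 6 libraries at the counting limit left out. Exon 1 was not compared with naïve cells, as a naïve library lacked reads there. Python 3.11.15, numpy 2.4.6, pandas 2.3.3, scipy 1.17.1 and R 4.3.3 were used.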

Additional observations from a re-analysis of the deposited data

Results flagged for a closer look

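At 3 CpGs of exon 3 every library of a comparison lay on the opposite side of its controls from every library of another, out of 42 such checks. Groups of 2 libraries without overlap were common over the locus, at 30.4% of CpGs for TDG deletion in the first cycle, 38.1% in the second, 48.3% between cycles in TET iTKO cells, and 80% and 86.7% for TET deletion, so the 3 are not a result about exon 3. CpG44 was 1.27 points higher in TET iTKO than in WT cells after the first cycle and 0.276 points lower in TDG iKO than in WT cells (a difference of −0.276). CpG45 differed by −0.990 points with TET deletion and by 1.35 points with TDG deletion after the second cycle. CpG46 changed by 1.42 points between cycles in TET iTKO cells and by −1.30 points in their WT controls. Whether these effects differ was not tested, each rests on 2 libraries per group, and none of the single differences passed the quasi-binomial test. In 12 checks of groups of 4 libraries, 0 had a library far from the others.

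Some reads of exon 3 were not tested. On the plus strand, PB-seq with CD4-Cre gave 0.316% (95% Wilson interval 0.260 to 0.384) in Tdg KO and 0.176% (0.143 to 0.217) in WT cells at the CpGs, where the cytosines outside CpGs had 0.430% and 0.476%. Both CpG values were thus below the background of their strand. With ERT2-Cre the plus strand went the other way, at 0.301% (0.258 to 0.350) in TDG WT and 0.250% (0.211 to 0.295) in TDG iKO cells, against 0.243% and 0.231% at cytosines outside CpGs. Plus-strand TAPS reads gave 99.0% in naïve cells and 97.8% in Th2 cells, against 0.582% and 0.417% at cytosines outside CpGs. The fall, opposite to the minus strand, lay at CpG43 (96.1% to 94.2%) and CpG45 (99.77% to 96.03%). CpG44 and CpG47, the lowest members on the minus strand, had 99.7% and 99.7% on the plus strand in naïve cells and 99.0% and 99.7% in Th2 cells. The reason for the difference between strands was not tested.

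Libraries of bone marrow-derived macrophages, made with other primers, also held a few exon 3 reads. The first 0 h library had at most 4 reads at a CpG (19 of 20 calls were C, 95%), the first 6 h library at most 16 (76 of 80, 95%) and the first 24 h library at most 3 (15 of 15). The second libraries of each time had 0. Where these reads came from was not tested.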

How the results depend on the processing

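The 28 results were recomputed under 277 alternatives, of which 247 kept direction and side of the threshold, 15 changed the sign of a mean difference, 10 raised a count from 0 and 5 lost a call. No exon 3 mean difference passed in any setting, but most could not, since 2 libraries against 2 give an exact p of at least 0.333 and 3 against 3 at least 0.1. The largest was 1.02 points and the smallest exact permutation p 0.114. Sign changes came with the median over the 5 CpGs (naïve to first cycle −0.351, TET second cycle 0.0807, TET iTKO between cycles 0.442), in 1 case with the replicate block given below, and with single libraries left out. Medians also enlarged the differences for naïve to second cycle (−0.544), TET first cycle (−0.995) and TDG first cycle (−0.210). Ranges with a library left out were −0.0569 to 0.271 points for naïve to first cycle, −0.312 to 0.0209 for naïve to second, −0.402 to −0.133 between WT cycles, −0.665 to −0.260 and −0.488 to 0.360 for TET first and second cycle, −0.189 to 0.0945 and −0.0652 to 1.02 for TDG first and second cycle, and −0.440 to 0.408 and −0.138 to 0.949 for TET iTKO and TDG iKO between cycles. The cause was not tested.

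Exon 3 CpGs were called with limma on log ratios for naïve to second cycle (1), and with no shared variance for the WT cycles (1), TET first cycle (1), TET second cycle (2) and TET iTKO between cycles (1). With no minimum difference Fisher's test called 4 and 4 for the sgRNAs, 2 and 3 for PB-seq with ERT2-Cre and CD4-Cre, and 3 for TAPS. With only naïve and WT libraries 0 pairs of CpGs passed. Without the 6 libraries at the counting limit, chosen after seeing the data, 0 exon 3 CpGs were called in all 9 comparisons. That setting leaves 1 library against 1 in the TET comparisons and in the second-cycle TDG comparison. It takes the spread from other groups, so it is a weak test.

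Samples share a replicate number, which in the TET and TDG groups also separates lower from higher read depth (7475 to 12507 against 58884 or more reads per CpG). Same-numbered samples correlated from −0.494 to 0.423 over the CpGs, and from −0.825 to 0.997 over those of exon 3 alone. These correlations do not settle whether the samples were pairs. The main tests were unpaired, as the paper's methods describe unpaired comparisons. With the replicate number as a block the naïve to second-cycle difference was 0.0209 points. It was the same without naïve replicate 3, which has no partner in the block. The blocked contrasts of exon 3 with CNS1, exon 1, intron 1 with exon 2, and HSII stayed at 34.9, 23.1, 20.95 and 36.4 points. Their exact permutation p was 0.125, the smallest for 4 pairs. The block changed no exon 3 call. Over the locus 34 CpGs were called for TET first cycle and 7 for TET iTKO between cycles, 5 of the 7 in HSII. A fit of only the groups compared called 34 and 5, and 22 and 0 once the block was added to it. With no shared variance the TET iTKO count was 15, and without the libraries at the counting limit the counts were 22 and 4. With a library left out the contrasts of exon 3 with the other regions were 32.4 to 37.3, 21.01 to 25.6, 19.6 to 21.9 and 34.5 to 38.6 points.

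Groups of 2 libraries, assays with 1 library per condition and animals that the labels do not name limit these comparisons. With 2 libraries against 2 the intervals of the mean reached 0.818 points to either side, and smaller effects of deletion on exon 3 could not be told from none.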
